A study of Mus musculus with 38 samples.

Results

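The cells described here carried the authors' annotation Intermediate state in the single-cell library made without BMP4. They were chosen as the columns of the deposited count table with the prefix JGES and that annotation, and they numbered 6211 of the 8685 cells of the BMP4- library (71.5%, exact binomial 95% interval 70.6 to 72.5) and of the 20020 cells of the BMP4- and BMP4+ libraries. The other annotations of the BMP4- library were pluripotent (1825 cells), endothelial (507 cells) and ParE (142 cells). In the study, mouse embryonic fibroblasts (MEFs) received 4 retrovirally delivered factors, *Jdp2*, *Glis1*, *Esrrb* and *Sall4* (JGES), and were cultured in iCD3, a chemically defined medium whose additions in the labels are Vitamin C, TV, bFGF, mLIF, SGC0946, CHIR99021, LSD1-HCL and Y27632. One library of 10x Genomics scRNA-seq was made at day 7 without BMP4 and one at day 7 with 10 ng/ml BMP4, a signalling protein of the bone morphogenetic family. Bulk RNA-seq was made of the whole BMP4- culture at days 0, 1, 3, 5 and 7. By the study's methods the MEFs came from crosses of OG2 males, which carry an *Oct4*-GFP transgene, to 129S4/SvJaeJ females, and every group shares this origin, the factors and the medium. Neither the labels nor the methods describe a sort by infection, so the libraries may hold cells that took up fewer than all factors.

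Reprogramming by transcription factors passes through cells that have left the fibroblast state without reaching pluripotency. Such cells are known for silencing part of the mesenchymal programme, for dividing, and for switching on genes of other lineages in scattered subsets. Signals added to the medium bear on them: CHIR99021 activates the WNT pathway, bFGF acts through FGF receptors, and LIF acts through STAT3.

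Each of the 2 conditions had 1 library, so no test between groups was possible and no p-value is given. The values are therefore levels: the unique molecular identifiers (UMIs) of a gene, summed over all cells of an annotation, per 1000000 UMIs of those cells (CPM). Intervals are exact 95% intervals that cover counting error only and not the spread between cultures. The intermediate cells held 83173650 UMIs, with a median of 11892 UMIs per cell (range 4464 to 49121) and 2656 genes. Pluripotent, endothelial and ParE cells had medians of 15444, 15083 and 11562 UMIs. Mitochondrial genes took a median of 3.82% of UMIs in intermediate cells and 3.04% to 3.34% in the other annotations, and 1168 intermediate cells (18.8%) were over 5%. In the space of the leading principal components, 6041 intermediate cells (97.3%) had 15 of 15 nearest neighbours with the same annotation and 3 had at least 8 with another one. The BMP4- and BMP4+ libraries shared 2 cell barcodes.

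A gene was counted as above when its level in intermediate cells was at least 2-fold that in each of the other 3 annotations, and as below when it was at most 1 / 2 of each. For these ratios, counts under 3 were set to 3. Of 8326 genes with at least 10 CPM in any annotation, 201 (2.41%) were above and 50 (0.601%) were below. Some of the 50 rest on this floor and were not at most 1 / 2 of each measured level. *Gna15* was at 0.794 CPM against 0.529 in ParE cells (1 UMI), and *Nxf7* had 0 UMIs in endothelial cells. The number above became 356 without mitochondrial and ribosomal protein genes in the total. The number below became 136 when each cell was thinned to 4000 UMIs. Differences between annotations follow from the annotation, which the authors made from the same cells, and are given as a description.

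The genes given as markers of these cells were *Hoxb13*, *Acta2* and *Fgf8*, and all 3 were above. *Hoxb13*, the last gene of the HoxB cluster, which acts in the posterior body axis, lies at chr11:96194316-96197447 (GRCm38, plus strand). Its level was 32.3 CPM (31.1 to 33.5) in intermediate cells, 6.84 in pluripotent, 9.03 in endothelial and 3.70 in ParE cells. *Acta2*, smooth muscle actin, at chr19:34241090-34255590 (minus strand), was at 41.8 CPM (40.4 to 43.2) against 2.09, 7.48 and 5.29. *Fgf8*, a ligand of FGF receptors in the primitive streak and tailbud, at chr19:45736798-45742915 (minus strand), was at 13.0 CPM (12.3 to 13.8) against 2.53, 4.04 and 1.06. All 3 genes were thus low on average even where they were highest.

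Each marker was found in a minority of the cells. To compare shares across depths, every cell was thinned to 4000 UMIs. *Hoxb13* then had a UMI in 8.15% of intermediate cells (7.48 to 8.86; 15.4% with all UMIs), against 1.97% of pluripotent, 3.35% of endothelial and 2.82% of ParE cells (8.27%, 9.86% and 4.23% with all UMIs). *Acta2* had one in 5.93% (5.35 to 6.54; 13.1% with all UMIs), against 0.658% and 2.76% of pluripotent and endothelial cells and 0 of 142 ParE cells (upper limit 2.56% for cells with a UMI at this depth). With all UMIs these were 2.63%, 7.495% and 7.04%. *Fgf8* had one in 2.37% (2.00 to 2.78; 4.80% with all UMIs), and this interval overlapped those of endothelial (1.38%, 0.557 to 2.82) and ParE cells (1.41%, 0.171 to 4.995). The share of cells with *Fgf8* was therefore separated from that of the pluripotent cells (0.822%, 0.461 to 1.35) and not from the other two at this depth. With all UMIs it was 4.93% in endothelial cells, above the 4.80% of the intermediate cells, 2.904% in pluripotent and 1.41% in ParE cells.

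The markers rarely occurred in the same cell. After thinning, 5217 cells (84.0%) had none of the 3, 967 (15.6%) had 1, 27 (0.435%) had 2, and 0 had all 3. With all UMIs these were 4314, 1735, 156 and 6 cells. *Hoxb13* and *Acta2* were found together in 21 thinned cells, where the product of their shares gives 29.98. *Hoxb13* and *Fgf8* shared 2 cells against a product of 11.98, and *Acta2* and *Fgf8* shared 4 against 8.71. For the last pair the order turned with all UMIs, 69 cells against 38.96. Other pairs were found together more often than the product: *Acta2* with *Tagln* in 168 cells against 30.99, *T* with *Fgf8* in 43 against 6.72, and *Cdx2* with *Fgf8* in 18 against 3.29. After thinning, each pair of the 3 markers was thus found together less often than the product, by a small margin for *Hoxb13* and *Acta2*, and the pair of *Acta2* and *Fgf8* did not keep this order with all UMIs.

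Genes with a large gap to the other annotations included some of mesenchyme, matrix and contractile cells. The 15 genes with the largest smallest ratio, among those of at least 20 CPM and with a UMI in at least 10% of cells, ran from *Tagln* (log2 4.09) to *Crabp1* (log2 2.16). *Tagln*, transgelin, an actin-binding protein of contractile cells, was at 72.9 CPM in intermediate cells and at 3.94, 4.28 and 2.65 in pluripotent, endothelial and ParE cells. *Snai2*, a repressor of epithelial genes, was at 41.5 CPM against 5.97, 5.70 and 5.29. *Prrx1*, a homeobox factor of mesenchyme, was at 39.0 against 4.52, 6.18 and 4.23. *Col1a1*, a chain of type I collagen, was at 38.0 against 7.04, 4.87 and 2.65. These 4 are textbook genes of fibroblasts and their contractile forms. *Gas1*, a membrane protein that binds hedgehog ligands, was at 62.3 CPM and nowhere over 7.94 in the other annotations. *Crabp1*, which binds retinoic acid in the cytoplasm, was the most abundant of the 15 at 131 CPM, against 29.5, 25.5 and 10.6.

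Others of the 15 included secreted proteins and transcripts of the HOX clusters. *Edn1*, endothelin, was at 24.9 CPM in intermediate and at 3.92 in endothelial cells. *Cxcl12*, a chemokine of stromal cells, was at 29.5 against 4.04, 5.46 and 3.70. *Wif1*, an extracellular inhibitor of WNT proteins, was at 28.1 against 4.48, 4.28 and 2.65, and *Wnt10a*, a WNT ligand, was at 30.4 against 3.17, 6.65 and 1.06. Both a ligand and an inhibitor of the same pathway were thus above. *Hoxc8* was at 29.0 against 2.46, 5.70 and 2.65, and *Hoxb5os*, a non-coding transcript, at 37.4 against 4.11, 2.97 and 4.23. *Hoxb5os* (chr11:96291024-96306910, minus strand) overlaps exons of *Hoxb5* and *Hoxb6* on the opposite strand, and whether the counting used strand is not given in the sources used here. *Crybb1*, a lens crystallin, was at 44.8 CPM, and *Tmem132c*, a membrane protein, was at 22.0 CPM. The plot of the 15 genes, with *Hoxb13* and *Fgf8* added, shows each value by annotation with its interval.

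**Figure D1:**
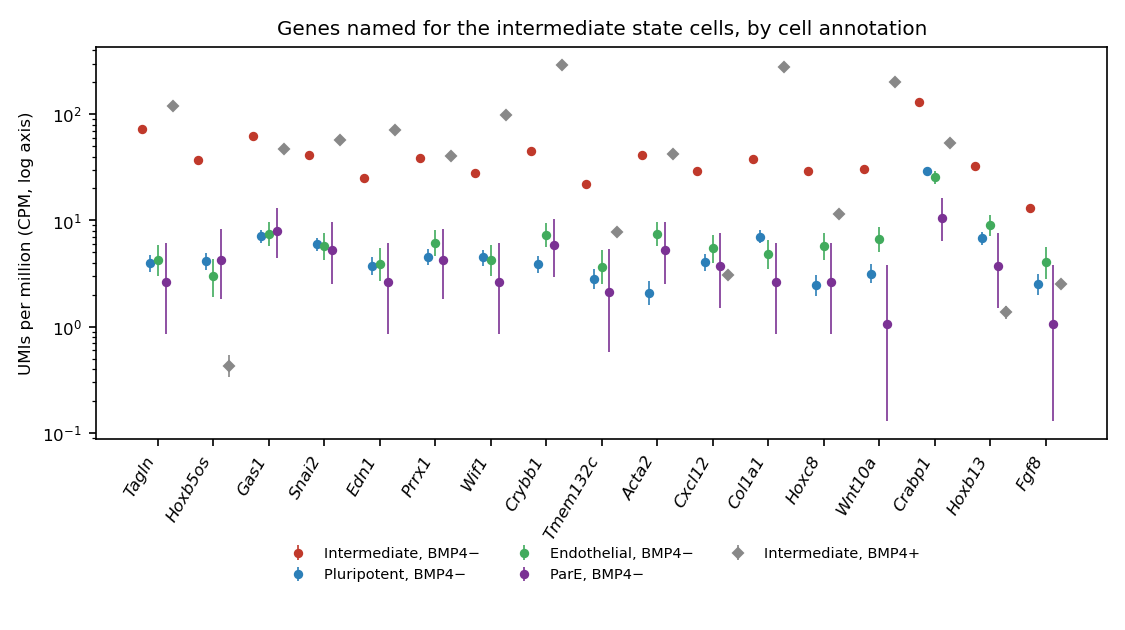
Levels in CPM (log axis) of the 15 genes named as above and of the markers *Hoxb13* and *Fgf8*, which are not among the 15. Points are the 4 annotations of the BMP4- library and the intermediate cells of the BMP4+ library, and bars are exact 95% Poisson intervals. *Tagln*, at 72.9 CPM in intermediate cells, stands farthest from the other annotations, and *Hoxb5os*, at 37.4 CPM, is at 0.429 CPM in the BMP4+ intermediate cells.

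HOX genes set position along the body axis. Of 39 HOX genes, 17 were at 10 CPM or more in some annotation and were tested, and 14 were above. In this list and those that follow, members such as *Hoxb1* (10.8 CPM against at most 2.12) and *Hoxd11* (12.8 against at most 2.26) were tested only because they reach 10 CPM in the intermediate cells, so nothing is read from the share of tested members that were above. The summed levels include every member. The HOX sum was 460 CPM in intermediate cells and 68.6, 159 and 77.8 in pluripotent, endothelial and ParE cells. *Hoxc9* (59.6 CPM against at most 15.4) and *Hoxc10* (52.2 against at most 14.96) were the most abundant of them.

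Of 18 mesenchymal transcription factors, 12 were tested and 7 were above, with a summed level of 384 CPM against 63.8, 161 and 72.5. *Prrx2* (53.5 CPM), *Twist1* (42.9 CPM) and *Meox1*, a factor of somites (42.1 CPM), were at 12.7 CPM or less elsewhere. Of the fibroblast matrix list 7 of 14 tested members were above, among them *Pcolce*, which helps to process procollagen (95.3 CPM), *Mmp2*, a gelatinase (25.5 CPM), and *Col3a1* (14.01 CPM). The summed level of that list was 686 CPM in intermediate cells and yet 4030 in ParE cells and 1084 in endothelial cells. *Sparc* (159 CPM against 1924 in ParE) and *Col4a1* (48.9 against 1193), genes that also serve the basement membrane, account for most of that ParE sum. Of the contractile list 3 of 9 tested members were above: *Tagln*, *Acta2* and *Tpm2*, a tropomyosin (32.1 CPM against at most 9.26).

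Signalling lists also had members above. For WNT ligands these were *Wnt6* (88.9 CPM against 10.1, 29.8 and 9.52), *Wnt10a* and *Wnt5a*, 3 of 5 tested, and for WNT target genes *Sp5* (56.0 CPM against at most 17.9), *Notum* (24.2) and *T* (20.2), 3 of 12. BMP target genes had 2 of 5 above although no BMP4 was added: *Id3*, an inhibitor of helix-loop-helix factors, was at 446 CPM against 74.4, 105 and 147, and *Id2* was at 245 CPM against 28.4, 30.5 and 107. Of BMP ligands and antagonists 0 of 7 were above. FGF ligands had 2 of 5 above, *Fgf17* (14.3 CPM) and *Fgf8*, although the list summed to 53.5 CPM against 58.3, 120 and 17.99 (pluripotent, endothelial, ParE). FGF receptors had 1 of 3 above (*Fgfrl1*, 13.5 CPM), and the FGF-ERK feedback list 1 of 9 (*Dusp6*, 29.5 CPM). TGF-beta target genes had 1 of 5 (*Tgfbi*, 14.2 CPM), LIF-STAT3 genes 0 of 6, ossification and cartilage genes 3 of 5 (*Sox9*, *Dlx3* and *Col2a1*, 12.8 to 19.2 CPM; the list summed to 162 CPM against 453 in pluripotent cells), secreted cytokines and proteases 2 of 5 (*Cxcl12* and *Ccl2*), immediate early genes 2 of 10 (*Fos* and *Egr1*), and p53 targets and cyclin-dependent kinase inhibitors 1 of 14 (*Cdkn2b*, 11.2 CPM).

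Several lists had no member past the fold against all 3 annotations. No tested member of the S phase (38 genes), G2M phase (51), heat shock (7), glycolysis and hypoxia (21), cholesterol synthesis (19), amino acid and unfolded protein response (12), epithelial (13), kidney development (1) or imprinted (14) lists was above or below. The summed S phase level was 1439 CPM against 2444 in pluripotent cells, and the G2M sum was 3302 against 4658. Imprinted genes summed to 4076 CPM against 855 in pluripotent and 7733 in endothelial cells.

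The markers of the other annotations were low. Pluripotency genes summed to 477 CPM in intermediate and 8513 CPM in pluripotent cells, with 2 of 19 tested members below, *Tfcp2l1* (3.76 CPM) and *Dppa4* (3.21 CPM), and *Nanog* was at 5.72 against 99.9 CPM. *Dppa5a*, an abundant gene of pluripotent cells, made up 261 CPM of the 477. It had a UMI in 63.3% of thinned intermediate cells, 62.9% of endothelial, 64.8% of ParE and 98.4% of pluripotent cells, so the share in intermediate cells was not separated from that in endothelial cells, and no expression is read from it. *Sox2*, a factor of pluripotent and neural cells, differed from that pattern. It was at 77.1 CPM and in 22.8% of thinned intermediate cells (21.8 to 23.9; 46.6% with all UMIs), against 10.1% of endothelial (7.58 to 13.0; 29.2%), 7.04% of ParE (16.9%) and 56.1% of pluripotent cells (90.8%).

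Endothelial markers summed to 33.1 CPM against 745 in endothelial cells, with 1 of 9 tested members below (*Pecam1*), and primitive endoderm markers to 104 against 1662 in ParE cells, with 0 of 12 above or below. Blood markers summed to 10.7 CPM against 765 in endothelial cells (2 of 8 below), macrophage markers to 2.71 against 71.0, trophoblast markers to 24.2, keratinocyte markers to 41.3, and skeletal muscle markers to 51.1 against 688 in pluripotent cells, none of these last 4 lists with a member above or below. Neural markers summed to 60.4 CPM, with *Nes* above at 10.4 CPM (1 of 3). The delivered factors had 0 of 3 tested members above or below: *Sall4* was at 22.8 CPM, *Jdp2* at 9.65, *Esrrb* at 7.66, and *Glis1* at 0.637 CPM was not tested. Delivered and native transcripts of these genes cannot be told apart in the counts.

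Fewer genes were below than above, 50 against 201 in the main count and 136 against 196 after thinning. Among genes of at least 20 CPM in each of the other 3 annotations, the 10 farthest below were led by *Vangl1*, *Ddah1* and *Rhox5*. *Rhox5*, a homeobox gene of the X chromosome, was at 16.1 CPM against 347, 39.6 and 159. *Upp1*, uridine phosphorylase, was at 19.3 CPM against 222, 45.3 and 66.1, and *Ddah1*, which breaks down methylated arginine, was at 16.8 against 44.7, 65.2 and 156. *Vangl1*, a planar polarity protein, was at 8.80 against 33.9, 23.99 and 45.0. The other members were *Smagp*, *Syngr1*, *Ostf1*, *Sec11c* and *Ocel1*, at 10.7 to 45.0 CPM in intermediate cells, and *Letm1*, which at 11.6 CPM against 21.4, 21.6 and 27.5 did not reach the fold.

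Spread within the intermediate cells was measured beside that of counting. For 3571 genes with a mean of at least 0.1 UMI after thinning, the variance divided by the mean, which is 1 for counting alone, had a median of 1.05 (25th percentile 1.02, 75th percentile 1.13, 95th percentile 1.81). The measure grows with a gene's mean, so a value near 1 for a sparse gene does not show that its level was even. It was at least 2 for 149 genes. The 15 highest were *Ins2* (68.0), *Spp1* (39.1), *Pyy* (36.8), *Msmp* (36.6), *Malat1* (35.5), *Dcpp3* (26.6), *Penk* (26.5), *Dcpp1* (22.2), *Dcpp2* (21.5), *Gpx3* (15.2), *Ftl1* (14.1), *Actb* (13.2), *Fth1* (12.7), *H19* (11.1) and *Tmsb4x* (10.6). Secreted proteins lead this order. *Ins2*, insulin (chr7:142678656-142743381, minus strand), had a UMI in 13.4% of thinned intermediate cells, and the 10% of cells with most of it held 95.01% of its UMIs. *Spp1*, osteopontin, had one in 11.1% of cells with 96.2% of UMIs in the top 10%. *Malat1*, a nuclear non-coding RNA, and *Ftl1* and *Fth1*, the ferritin chains, were in nearly every cell, with 29.3%, 23.3% and 31.7% of their UMIs in the top 10%. The *Dcpp1*, *Dcpp2* and *Dcpp3* genes encode near-identical secreted proteins and *Dcpp1* and *Dcpp2* overlap on one strand, so the split of reads among them is uncertain.

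**Figure D2:**
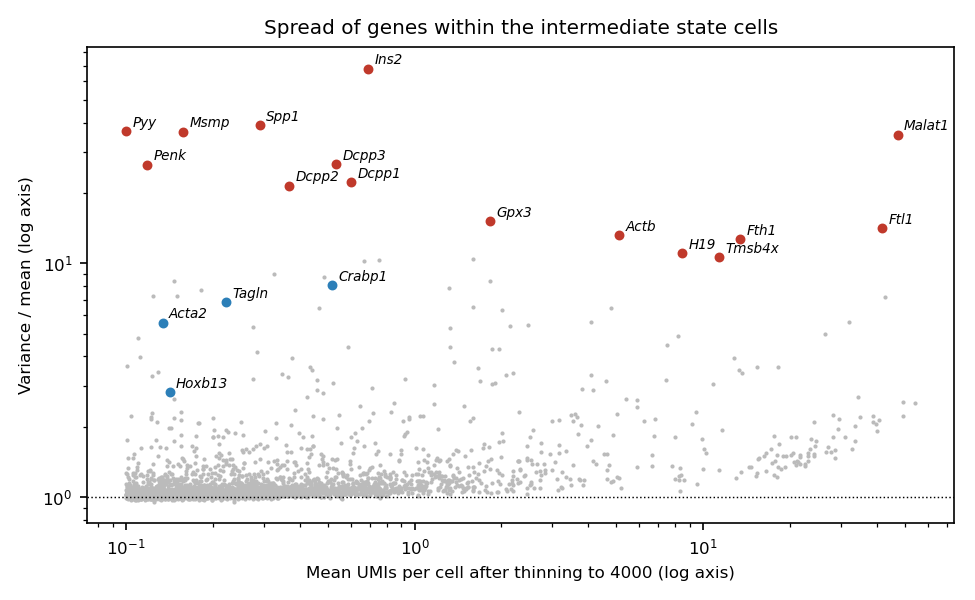
Variance divided by mean against mean UMIs per cell (both on log axes) for the 3571 genes with a mean of at least 0.1, in 6211 intermediate cells thinned to 4000 UMIs each. Most genes lie near 1, the value for counting alone, and *Ins2* lies highest at 68.0.

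Summed by list, variance over mean, which here too grows with abundance, was highest for ossification and cartilage genes (variance over mean 20.5, a list that holds *Spp1*), then for fibroblast matrix (9.22), imprinted genes (9.10), glycolysis and hypoxia (8.91), G2M phase (7.57) and contractile genes (6.67). By the share of UMIs in the top 10% of cells the order differed: it was 20.2% for glycolysis and hypoxia, 40.9% for matrix, 44.4% for contractile, 64.7% for ossification and cartilage genes and 71.8% for the sparse FGF ligands. The median cell held 2 UMIs of matrix genes, the 95th percentile 7 and the highest cell 179. For contractile genes these were 1, 7 and 76, and for HOX genes 1, 6 and 22. The highest cells thus stood farther out for the matrix and contractile lists than for the HOX list. Across the 6211 thinned cells, which share 1 library, Spearman's rho was 0.36 between the S phase and G2M sums, 0.30 between matrix and contractile, 0.22 between matrix and imprinted, and -0.21 between mesenchymal factors and epithelial genes.

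To lay out this variation, the intermediate cells were clustered on their own into 10 sub-clusters (Leiden, resolution 0.5), called by number and leading genes. Levels by sub-cluster rest on the genes that formed them and are a description. Sub-cluster 1 held 1180 cells, 2 held 1089, 3 held 1012, 4 held 741, 5 held 533, 6 held 515, 7 held 499, 8 held 275, 9 held 227 and 10 held 140 (2.25%). Each marker had its highest level in a different sub-cluster. *Hoxb13* was at 475 CPM (443 to 508) in sub-cluster 10 and at 22.7 CPM in all other intermediate cells, so that 2.25% of the cells held 31.3% of its UMIs. *Acta2* was at 541 CPM in sub-cluster 9 and at 17.8 CPM elsewhere, with 59.4% of its UMIs there. *Fgf8* was at 66.5 CPM in sub-cluster 6 and 65.6 CPM in sub-cluster 7, which together with their 44.1% and 44.0% held most of its UMIs, and it had 0 UMIs in sub-cluster 10, which allows up to 2.09 CPM. When the 3 markers were left out of the genes used for clustering, an alternative added after seeing the data, *Fgf8* remained apart, and *Hoxb13* (73.8 CPM) and *Acta2* (128 CPM) were both highest in the same sub-cluster of 1273 cells. The small group with high *Hoxb13* depended on the settings: its highest level was 298 CPM in 225 cells at resolution 0.8, 101 CPM in 814 cells with a larger set of variable genes, 73.1 CPM in 1373 cells with 20 principal components, 79.5 CPM in 1361 cells without the cell cycle genes and 71.0 CPM in 1447 cells at resolution 0.3. *Acta2* stayed at 426 to 553 CPM in its highest sub-cluster at resolution 0.8, with 20 components and without the cell cycle genes, and was at 133 CPM with a larger set of variable genes and 115 CPM at resolution 0.3.

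**Figure D3:**
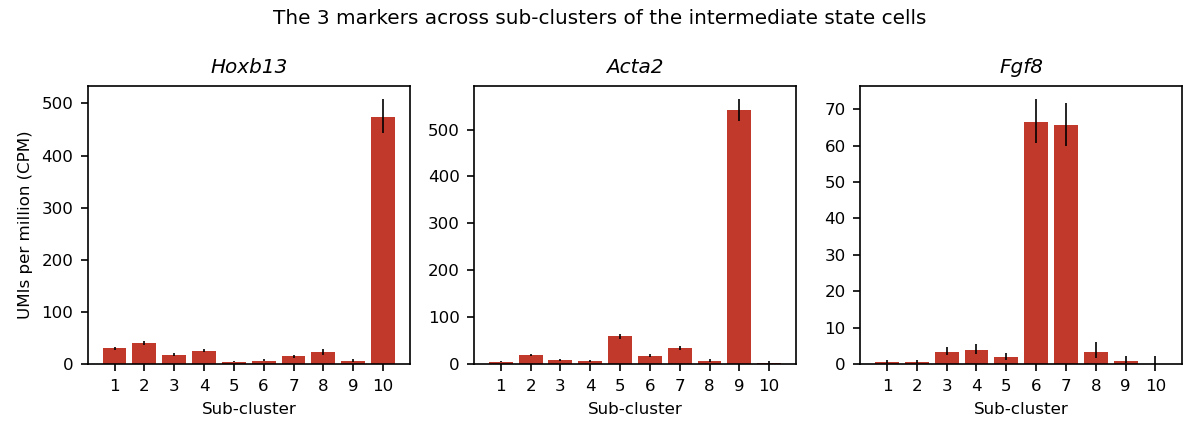
Levels in CPM with exact 95% Poisson intervals of *Hoxb13*, *Acta2* and *Fgf8* in the 10 sub-clusters of the BMP4- intermediate cells. *Hoxb13* peaks in sub-cluster 10 (475 CPM), *Acta2* in sub-cluster 9 (541 CPM), and *Fgf8* in sub-clusters 6 and 7 (66.5 and 65.6 CPM).

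Sub-cluster 9 (227 cells, 3.66%) had the highest contractile and matrix levels of the 10. Its leading genes were *Ccl8*, *Ccl7*, *Sprr1a*, *Psca* and *Ankrd1*. The contractile list summed to 3309 CPM against 485 in the other intermediate cells, and the matrix list to 3598 against 546. The ossification and cartilage list summed to 1254 against 109 CPM, of which *Spp1* alone made up 1188 and 38.1, and secreted cytokines and proteases summed to 814 against 137. *Tagln* was at 874 CPM against 34.4, *Col1a1* at 364 against 22.3 and *Spp1* at 1188 against 38.1. *Cnn1*, calponin of smooth muscle, was at 66.0 against 2.32, *Myl9*, a myosin light chain, at 138 against 11.6, *Actc1*, cardiac actin, at 37.7 against 0.958, and *Acta1*, skeletal actin, at 26.2 against 0.857. Its median depth, 15409 UMIs, was above that of the other sub-clusters, and 32.2% of them were over 5% mitochondrial UMIs. Markers of other cell types were also at their highest of the 10 here: keratinocyte markers summed to 86.2 CPM against 39.2, endothelial markers to 67.6 against 31.4 and blood markers to 23.3 against 10.1, and epithelial genes to 801 against 353, second to sub-cluster 8. The part of depth, mitochondrial share and these markers in the levels was not tested.

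Contractile genes are known targets of serum response factor, which binds the CArG box, CC and GG around a run of A and T. The letters of the box, read on both strands, were searched in the RefSeq promoters of GRCm38.p6, each 250 bases before to 50 after the start. They were in 3 of the 16 promoters matched for 14 contractile genes, those of *Actc1*, *Acta1* and *Myl9*, and in 535 of 32851 promoters (1.63%). They were also in 2 of the 19 promoters matched for WNT target genes, so nothing particular to the contractile list is read from them. The windows of these 3 genes are shown because they hold the box, which is in capitals; the windows of *Acta2* and *Cnn1* hold none of these letters, and nothing is drawn from that. They are chr2:114052826-114053125 (minus strand) for *Actc1*, chr8:123894726-123895025 (minus strand) for *Acta1* and chr2:156775214-156775513 (plus strand) for *Myl9*, 5′ to 3′ of each gene.
Actc1: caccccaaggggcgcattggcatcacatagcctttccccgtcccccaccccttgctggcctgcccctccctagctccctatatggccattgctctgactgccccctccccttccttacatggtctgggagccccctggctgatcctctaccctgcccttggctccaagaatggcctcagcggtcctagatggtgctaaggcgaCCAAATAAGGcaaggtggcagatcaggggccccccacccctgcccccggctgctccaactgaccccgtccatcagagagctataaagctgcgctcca
Acta1: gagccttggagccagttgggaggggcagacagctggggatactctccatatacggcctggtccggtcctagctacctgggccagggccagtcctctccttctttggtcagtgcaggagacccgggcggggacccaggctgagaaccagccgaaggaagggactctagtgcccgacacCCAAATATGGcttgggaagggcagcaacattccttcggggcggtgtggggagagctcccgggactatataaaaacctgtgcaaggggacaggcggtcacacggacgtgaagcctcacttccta
Myl9: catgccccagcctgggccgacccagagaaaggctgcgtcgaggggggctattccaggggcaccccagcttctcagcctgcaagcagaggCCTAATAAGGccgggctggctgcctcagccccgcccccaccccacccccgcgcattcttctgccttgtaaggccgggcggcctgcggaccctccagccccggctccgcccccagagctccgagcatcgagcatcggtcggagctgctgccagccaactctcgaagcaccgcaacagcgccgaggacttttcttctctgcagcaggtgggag
The box begins 47, 73 and 161 bases before the start of *Actc1*, *Acta1* and *Myl9*. A match in letters is a description and not a shown binding site.

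Sub-clusters 6 and 7 shared *Fgf8* and differed in their leading genes. Sub-cluster 6 (515 cells) was led by *Cdx4* (22.6 CPM against 0.382 in the other intermediate cells), *Cdx2* (74.5 against 1.36), *Lefty1* (177 against 5.62), *Npy* (57.6 against 2.24) and *Lefty2* (88.8 against 4.92). *Cdx2* and *Cdx4* are caudal homeobox factors that act on HOX genes, and *Lefty1* and *Lefty2* inhibit Nodal. *Lefty1* and *Lefty2* were also at 77.5 and 42.8 CPM in pluripotent cells. Neural markers (156 CPM against 51.4), trophoblast markers (46.6 against 22.1) and pluripotency genes (672 against 458) were at their highest of the 10 in sub-cluster 6. The delivered factors were too (83.4 against 36.7), so the lists of sub-cluster 6 did not point one way. The HOX list was likewise at its highest, 937 CPM against 415, and so were *Hoxb5os* (234 against 18.8) and *Lin28a*, an RNA-binding protein of early embryonic cells (72.9 against 10.0). Sub-cluster 7 (499 cells) was led by *Mesp1*, a factor of early mesoderm (25.4 against 0.514), *AW112010*, *Sprr2a3* (183 against 8.52), *T*, brachyury (146 against 8.14), and *Cav1*, caveolin (21.5 against 1.28). *Hoxb1* was high in both, 44.1 CPM in 6 and 58.7 in 7. Primitive endoderm markers (182 CPM against 96.1) and skeletal muscle markers (70.4 against 49.3) were also at their highest of the 10 in sub-cluster 7. WNT target genes summed highest in sub-cluster 7 (466 CPM against 306) and next in 6 (406 against 312). *T* is itself a member and made up 146 of the 466 CPM and 8.14 of the 306, and sub-clusters 3 and 4 stood at 378 and 379 CPM, so the order rests on *T*.

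WNT signals act through LEF and TCF factors, whose letters were searched as CTTTGAT or CTTTGAA on both strands in the same promoter windows. They were in 4 of the 19 promoters matched for 12 WNT target genes in 3 of the 24 promoters matched for HOX genes and in 2842 of 32851 promoters (8.65%). The windows of *Axin2*, *Nkd1*, *Cdx2* and *Cdx4* hold none of them. That of *Sp5* holds CTTTGAT, which begins 104 bases before its start. The window of *T* (chr17:8434173-8434472, plus strand) was picked because it holds a match, shown in capitals, which begins 235 bases before the start.
T: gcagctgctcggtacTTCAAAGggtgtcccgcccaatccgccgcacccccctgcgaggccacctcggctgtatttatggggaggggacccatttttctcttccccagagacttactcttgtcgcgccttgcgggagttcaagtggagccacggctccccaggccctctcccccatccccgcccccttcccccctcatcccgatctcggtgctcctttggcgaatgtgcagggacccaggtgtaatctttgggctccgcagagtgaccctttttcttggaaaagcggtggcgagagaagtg

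Sub-cluster 5 (533 cells) held the highest level of mesenchymal transcription factors, 843 CPM against 336 in the other intermediate cells. Among its leading genes were *Fndc3c1*, *Tril*, *Nkd2* and *Crabp1*, the last at 563 CPM against 86.0 and in 85.4% of its cells. *Prrx1* was at 96.3 CPM against 33.0. In contrast to sub-cluster 9, its cells were rarely over 5% mitochondrial UMIs (4.50%), and *Acta2* was at 58.9 CPM. Sub-cluster 2 (1089 cells) was led by *Gm26829*, *Fgfbp1*, *Zic1*, *Fam81a* and *Thrsp*, with *Foxc1* at 44.8 CPM against 11.9, and its sum of mesenchymal factors was 463 CPM.

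Sub-cluster 1, the largest, had the highest level of *Ins2*, the gene with the widest spread. It was led by *Ins2* (757 CPM against 45.6), *Msmp*, a microseminoprotein (216 against 13.0), *Ttr*, transthyretin (101 against 7.28), *Ccdc88b* and *Card9*. *Dcpp1* was at 456 CPM against 62.7 and *Wnt10a* at 94.4 against 16.2. Of its cells 43.3% were over 5% mitochondrial UMIs, the highest share of the 10, and its median depth was 10610 UMIs. Whether these values play a part in its gene levels was not tested.

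Sub-cluster 10 (140 cells), led by *1700011M02Rik*, *Hoxb13*, *Eras*, *Rgcc* and *Pcsk1n*, had *Hoxb13* in 76.4% of its cells with all UMIs. *Rgcc*, a regulator of the cell cycle, was at 490 CPM against 54.8, and *Pcsk1n*, an inhibitor of a prohormone convertase, at 709 against 80.3. *Sox2* was also at its highest here, 224 CPM, and as low as 17.3 in sub-cluster 5 and 17.5 in sub-cluster 7. Its level over all intermediate cells, given above, lay between these. In contrast, *Dppa5a* ran from 234 to 283 CPM over all 10 sub-clusters. *Acta2* was at 2.83 CPM and the mesenchymal factors summed to 164 CPM against 389.

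The other sub-clusters were set apart by division, by epithelial genes or by little. Sub-cluster 4 (741 cells) was led by *Nusap1*, *Neil3*, *Lockd*, *Depdc1a* and *Prc1*, of which *Nusap1* and *Prc1* act on the mitotic spindle, and its G2M sum was 5873 CPM against 2939. Of its cells 9.72% were among the 6% of the library with the highest doublet scores. Sub-cluster 8 (275 cells) was led by *Ly6d*, *Gpx2*, *Krt7*, *Foxq1* and *Ffar4*, with epithelial genes at 1301 CPM against 337 and the lowest sum of mesenchymal factors, 121 CPM. Keratinocyte markers (72.2 CPM against 40.1) and trophoblast markers (36.4 against 23.7) were also higher there. The sparse macrophage markers were at their highest of the 10 (8.41 against 2.48). Its median depth, 9819 UMIs, was the lowest, and the part of depth in these levels was not tested. Sub-cluster 3 (1012 cells) was led by *Emid1*, *Col9a1*, *Emx2*, *Efcab1* and *Socs2*, and its leading gene reached a log2 ratio of 1.30.

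**Figure D4:**
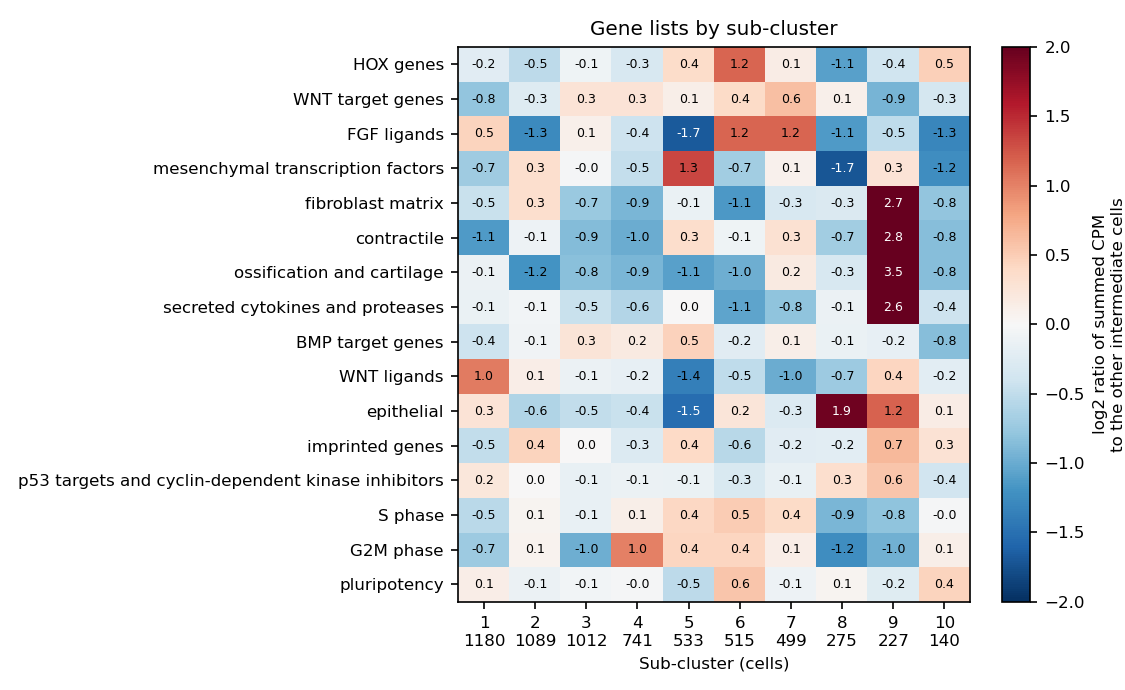
Summed level of gene lists in each of the 10 sub-clusters relative to all other intermediate cells (log2 ratio of CPM). The contractile (3309 against 485 CPM) and matrix (3598 against 546 CPM) lists are high in sub-cluster 9. There the ossification and cartilage list (1254 against 109 CPM) is carried by *Spp1* (1188 against 38.1 CPM). The HOX list is high in 6, epithelial genes in 8 and mesenchymal factors in 5. Neural markers, also highest in 6 (156 against 51.4 CPM), are not plotted.

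The same annotation in the BMP4+ library held 7125 of 11335 cells (62.9%). These cells were deeper (median 19594 UMIs and 4183 genes) and ribosomal protein genes took a median of 26.6% of their UMIs against 44.7% without BMP4. BMP4 and the library cannot be told apart. Of 8294 genes, 417 (5.03%) were at least 2-fold higher without BMP4 and 2481 (29.9%) were at least 2-fold lower, and the median log2 ratio of all genes was -0.39. Among the 201 genes above, 57 were higher and 57 lower without BMP4.

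*Hoxb13*, *Fgf8* and *T* were higher in the BMP4- cells. *Hoxb13* was at 32.3 CPM without and 1.37 CPM with BMP4 (log2 ratio 4.56), and in 0.365% of thinned BMP4+ intermediate cells (1.31% with all UMIs). *Fgf8* was at 13.0 and 2.55 CPM. *T* was at 20.2 and 0.0621 CPM, with a UMI in 4.57% of thinned cells (8.45% with all UMIs) and in 0 of 7125 thinned BMP4+ cells, 0.0842% with all UMIs. *Meox1* was at 42.1 and 1.44 CPM, *Cxcl12* at 29.5 and 3.09, and *Hoxb5os* at 37.4 and 0.429. The HOX list summed to 460 CPM without and 216 CPM with BMP4. *Acta2* did not follow them in level, at 41.8 and 42.7 CPM. Its share of cells did: it had a UMI in 5.93% of thinned cells without and 3.69% with BMP4 (13.1% and 8.93% with all UMIs).

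The matrix list, *Ins2* and WNT ligands were higher in the BMP4+ cells. *Col1a1* was at 38.0 CPM without and 281 CPM with BMP4, and the matrix list summed to 686 and 4276. *Ins2* was at 175 and 10860 CPM, with a UMI in 13.4% and 87.1% of thinned cells (30.1% and 98.5% with all UMIs). In the BMP4- library *Ins2* was in 16.2% of thinned endothelial cells (33.1%), at 409 CPM, so no order among the annotations is read from its share. *Wnt10a* was at 30.4 and 200 CPM, and WNT ligands summed to 179 and 1198. BMP target genes summed to 996 and 2264 CPM, with *Id3* at 446 and 789.

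The bulk libraries of the BMP4- culture give the levels of these genes by day. The day 0 library already held the 4 delivered factors at a median of 308 FPKM, with 1 of them under 1 FPKM, so it is no library of untreated fibroblasts. Each day had 1 library of the whole culture, in FPKM, a level per transcript length and library total, so there is no replicate check, and fewer cells of a type and less RNA per cell cannot be told apart. Of 35976 genes, 3326 (9.25%) were at least 2-fold higher at day 7 than at day 0 on the FPKM + 1 scale and 1553 (4.32%) at least 2-fold lower. From day 0 to day 7, *Acta2* was at 983, 23.8, 5.37, 3.22 and 7.66 FPKM, a log2 change of -6.83. *Tagln* was at 1228, 58.8, 13.5, 8.34 and 21.6 FPKM, and *Col1a1* at 524, 72.7, 19.4, 12.1 and 20.2. These genes were thus highest at day 0, and their day 7 value was above that of day 5.

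*Hoxb13* and *Fgf8* went the other way. *Hoxb13* was listed at 0 at days 0 and 1, and was at 30.01 FPKM by day 3, then gave 10.6 at day 5 and 11.03 on day 7. *Fgf8* was listed at 0 at days 0 and 1 and was at 0.504, 5.04 and 1.67 FPKM thereafter. *T* was listed at 0 on days 0 and 1 and then at 3.51, 10.4 and 9.17 FPKM, and *Cdx2* at 0.322, 6.90 and 3.73. *Hoxb13* was thus highest at day 3, and *Fgf8*, *T* and *Cdx2* at day 5. Of the genes leading sub-cluster 1, *Ins2* was at 42.6, 148, 270, 104 and 38.6 FPKM, highest at day 3, and *Msmp* at 161, 487, 297, 72.5 and 42.1, highest at day 1.

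**Figure D5:**
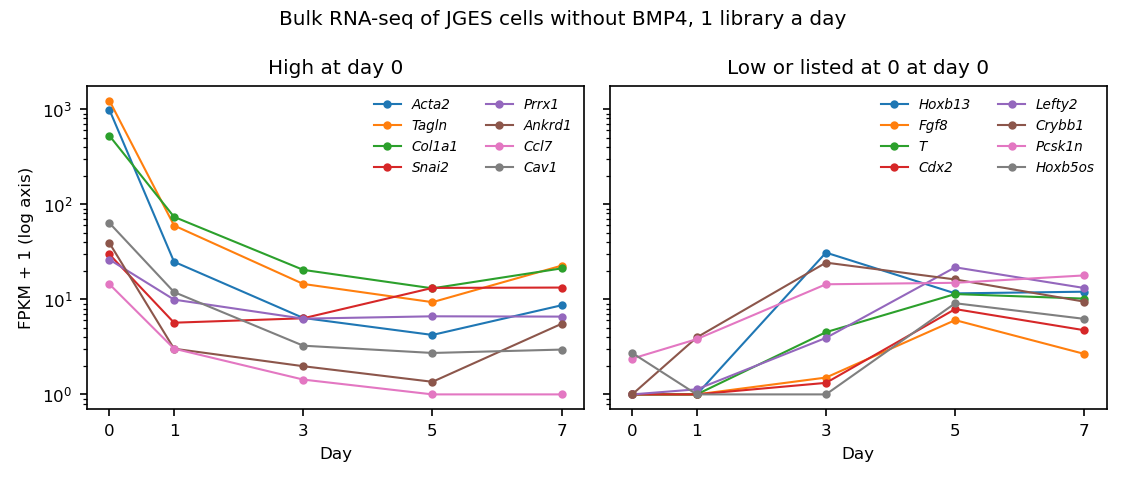
FPKM + 1 (log axis) in the bulk libraries of the BMP4- culture by day, 1 library per day. *Acta2* is at 983 FPKM at day 0 and 7.66 at day 7, whereas *Hoxb13* is listed at 0 at day 0 and is at 11.03 FPKM at day 7.

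Of the 15 genes named as above, 10 were lower and 3 higher at day 7 than at day 0, the higher ones being *Crybb1* (0 to 8.45 FPKM), *Tmem132c* (0.591 to 13.6) and *Hoxb5os* (1.73 to 5.23). Over all 201 genes above, 59 were lower and 56 higher. The contractile list had 17 of 18 genes lower and the matrix list 18 of 24, with none higher. The HOX list had 12 lower and 3 higher of 39, the mesenchymal factors 10 lower of 18, and the WNT target genes 13 higher of 16. By sub-cluster, the 5 leading genes of 6 were all higher and all listed at 0 at day 0, those of 3 and 8 were higher for 4 of 5, those of 1 and 10 for 3 of 5, those of 5 and 7 for 2 of 5 and that of 4 for 1 of 5. Those of 2 were higher for 2 of 4 listed, and those of 9 were lower for 3 of 5 and higher for 0. In each of sub-clusters 1, 2, 5, 7 and 8, 1 leading gene was lower.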

How the data were processed

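The authors made the deposited count table of 20695 genes from 10x Genomics scRNA-seq with STARsolo (mm10, GENCODE vM21 by the study's methods), filtered cells by UMIs, and annotated the cells. Its values are whole counts, taken as UMI counts because the labels name 10x Genomics and the methods STARsolo, although the extraction text in the labels describes an rRNA-depleted bulk kit. Its 10749 columns of other cells were not used. The authors made the deposited bulk FPKM table with HISAT2 and StringTie, and 12 of its columns were not used. With 1 library per group no test was possible. Members and gene lists were chosen with earlier results of these data known.

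Counts were summed per annotation and given as CPM with exact Poisson intervals; shares have exact Clopper-Pearson intervals. Genes needed 10 CPM in any annotation, ratios used a floor of 3 counts, and a 2-fold change was counted. For shares and spread, each cell was thinned to 4000 UMIs (seed 1), and no cell was shallower. Intermediate cells were clustered on 2000 variable genes, scaled to 10000 counts, with 30 principal components, 15 neighbours and Leiden resolution 0.5. Named were 15 genes above, 10 below, 15 by spread, 5 per sub-cluster, the 3 markers and members of 36 lists. One item that the rule names is not reported here. Scrublet called 4 doublets, too few to have worked, so the 6% of cells with the highest scores were left out in an alternative; 274 of them (4.41% of the cells) were intermediate. Bulk changes used a pseudocount of 1 FPKM, and the depth of the bulk libraries is unknown. Scripts were tested on simulated data. Versions were Python 3.11.15, NumPy 2.4.6, pandas 2.3.3, SciPy 1.17.1, scanpy 1.11.5, scikit-learn 1.9.0, igraph 0.11.9 and matplotlib 3.10.9.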

Additional observations from a re-analysis of the deposited data

Results flagged for a closer look

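For 6 of the named genes the intermediate cells differed from the other cells of their library by at least 2-fold in both libraries and in opposite directions with and without BMP4. Others had opposite signs without reaching 2-fold in both. The difference between the libraries was not tested, since each condition had 1 library, and the other cells of the BMP4+ library carried other annotations in part. *Cdx2* had a log2 ratio of intermediate to other cells of 1.83 without BMP4 (7.66 against 2.15 CPM) and of -3.38 with BMP4 (0.435 against 4.53 CPM). *T* had 2.10 without (20.2 against 4.70 CPM) and -1.64 with BMP4 (0.0621 against 0.194 CPM). *Sprr2a3*, a cornified envelope protein, had 3.23 without (23.7 against 2.53 CPM) and -2.36 with BMP4 (1.23 against 6.30 CPM). *Ffar4*, a fatty acid receptor, had 1.86 without (4.004 against 1.10 CPM) and -1.08 with BMP4 (0.298 against 0.628 CPM). These 4 genes were higher in intermediate than in other cells in the BMP4- library and lower in the BMP4+ library. *T* and *Ffar4* were sparse in both groups of the BMP4+ library, where *T* had a UMI in 0.0842% of intermediate cells with all UMIs. Their BMP4+ ratios rest on few UMIs and are given without intervals.

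The reverse held for the remaining pair. *Spp1* had a log2 ratio of -1.48 without BMP4 (90.9 against 254 CPM) and of 2.98 with BMP4 (545 against 69.1 CPM). *Gm26829* had -1.28 without (17.7 against 43.1 CPM) and 2.39 with BMP4 (9.04 against 1.73 CPM). In the pluripotent, endothelial and ParE cells of the BMP4- library, *Spp1* was at 330, 23.3 and 86.8 CPM and *Gm26829* at 47.1, 37.4 and 4.76 CPM. The BMP4+ library had no cells annotated as pluripotent, so the groups of other cells differ in make-up.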

How the results depend on the processing

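The number of genes above (201) became 356 without mitochondrial and ribosomal protein genes in the total. In that setting more genes pass 10 CPM and the ratios shift as well, and the part of each was not tested. The number above became 326 and 37 with a minimum of 5 or 50 CPM, and 389 and 92 with a fold of 1.5 or 3. The number below (50) became 136 after thinning, 90 and 13 with those minimums, and 152 and 10 with those folds. After thinning the totals are smaller, so the floor of 3 counts stands for a higher CPM and more calls below can rest on it. Its part in the 136 was not tested. Thinning kept 168 of the 201 and 36 of the 50. Resolution 0.3 gave 3 sub-clusters, and there *Hoxb13* and *Acta2* were both highest in the same one, of 1447 cells. A pseudocount of 0.1 FPKM gave 6422 genes higher and 3036 lower in bulk. After thinning, the median log2 ratio of FGF ligands against pluripotent cells went from 0.71 to -0.77, that of endothelial markers from 0.12 to -0.49, and that of skeletal muscle markers against ParE cells from 0.78 to -0.45. The pair of *Acta2* and *Fgf8* was found together less often than the product after thinning and more often with all UMIs. In all, 14 list medians moved after thinning, 5 without the highest doublet scores and 1 without cells among other annotations. Of the counts above and the other main values, 13 moved and 26 did not; of those for single genes and lists, 35 moved and 637 did not. Without cells over 5% mitochondrial UMIs, 204 genes were above and 188 of them were shared. No paired analysis was possible because each condition had 1 sample. The ParE shares rest on 142 cells, and their intervals are wide.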
